A study of Mus musculus with 30 samples.

Results

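MicroRNA precursor hairpins were measured on the miRNA arrays beside the mature miRNAs that are cut from them. The 1255 hairpin probe sets are the rows of the authors' miRNA tables whose identifier is that of a miRBase precursor and not of a mature miRNA. They make up 1255 of the 3163 mouse probe sets and of the 36353 probe sets on the array, and the other 1908 mouse probe sets read mature miRNAs. The hairpins carry 1174 distinct names, because 79 names have more than 1 probe set, and 55 probe sets have values identical to those of another on every array. Hairpins were 39 to 147 bases long (median 81). By the deposited locations 1250 of them enclose at least 1 mature miRNA: 341 enclose 1, 908 enclose 2 and 1 encloses 4. Below, a hairpin is written mir and a mature miRNA miR, as in miRBase, with the mouse prefix mmu left out.

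The arrays held RNA of 2 tissues dissected from mouse embryos at embryonic day 9.5, at 19 to 21 somite pairs: the anterior second heart field (aSHF), and the right ventricle together with the outflow tract (OFT-RV). Mutant embryos were Mef2c-AHF-Cre/+ with Dgcr8 f/f, and wild-type embryos were Dgcr8 f/+ without the Cre, so the wild-type embryos also carried 1 floxed allele. Each pool held tissue of 1 genotype from at least 5 litters. For aSHF there were 4 mutant and 4 wild-type miRNA arrays, for OFT-RV 3 mutant and 3 wild-type miRNA arrays, and 16 mRNA arrays added 4 mutant and 4 wild-type pools of each tissue. Whether an mRNA array and a miRNA array shared a pool is not stated. Mef2c-AHF-Cre drives recombination in second heart field cells of the anterior part and in what derives from them, so cells of other lineages in a dissected piece keep Dgcr8. In such bulk tissue, fewer cells of a type and less RNA per cell cannot be told apart.

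A miRNA gene is transcribed into a long primary transcript in which the miRNA sits in a hairpin. In the nucleus the Microprocessor, made of Drosha and its RNA-binding partner Dgcr8, cuts the hairpin out. The freed precursor is exported and cut again by Dicer, which leaves the short mature miRNA that is loaded into the silencing complex. A few hairpins, such as those formed directly at a transcription start or from a spliced intron, bypass the Microprocessor. The hairpin's sequence is thus part of the primary transcript and contains the mature miRNA.

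The first letters shown are those of hairpins with high signal, and of mir-181a-1, whose signal was at background although it is a close relative of mir-181a-2. Letters are from RefSeq, build GRCm38.p6, where the places of 1019 hairpin probe sets equal a RefSeq entry. Capitals mark the annotated mature miRNAs. The hairpins mir-465c-1 (chrX:66825955-66826035, minus strand) and mir-465c-2 (chrX:66832517-66832597, minus strand) have the same 81 letters and identical values on every array. The hairpin mir-181a-2 (chr2:38852735-38852810, plus strand, inside the span of Nr6a1 and of its antisense gene Nr6a1os) shares its longest run of 28 letters with mir-181a-1 (chr1:137966455-137966541, plus strand).
mir-465c-1: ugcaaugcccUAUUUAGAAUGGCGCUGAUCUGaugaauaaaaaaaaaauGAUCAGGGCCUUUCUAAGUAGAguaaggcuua
mir-181a-2: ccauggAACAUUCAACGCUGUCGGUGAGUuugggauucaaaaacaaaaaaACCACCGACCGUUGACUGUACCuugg
mir-181a-1: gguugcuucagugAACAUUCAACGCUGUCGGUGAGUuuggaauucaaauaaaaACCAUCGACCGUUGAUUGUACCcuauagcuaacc
mir-361 (chrX:113074824-113074893, minus strand, inside the span of Chm): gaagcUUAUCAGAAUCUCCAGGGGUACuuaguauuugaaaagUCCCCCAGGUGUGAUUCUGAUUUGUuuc

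A second set of hairpins is shown because their mature miRNAs were lower in OFT-RV mutants while the hairpins read at or near background. The hairpin mir-378b (chr11:88352773-88352864, plus strand) lies in the span of Msi2 and mir-378c (chr14:46954830-46954928, minus strand) in that of Samd4. The hairpins mir-667 (chr12:109720006-109720097, plus strand), mir-543 (chr12:109717258-109717333, plus strand), mir-134 (chr12:109734139-109734209, plus strand) and mir-300 (chr12:109724313-109724391, plus strand) belong to the imprinted Dlk1-Dio3 locus, whose miRNAs form one of the largest clusters of the mouse genome.
mir-378b: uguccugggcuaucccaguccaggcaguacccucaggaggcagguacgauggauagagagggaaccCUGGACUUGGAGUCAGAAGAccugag
mir-378c: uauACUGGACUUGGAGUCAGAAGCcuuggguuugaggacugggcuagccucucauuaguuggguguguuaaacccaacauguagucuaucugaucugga
mir-667: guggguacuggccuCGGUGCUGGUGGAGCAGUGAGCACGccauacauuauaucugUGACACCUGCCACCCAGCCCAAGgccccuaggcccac
mir-543: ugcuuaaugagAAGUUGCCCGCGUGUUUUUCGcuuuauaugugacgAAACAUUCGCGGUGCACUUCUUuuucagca
mir-134: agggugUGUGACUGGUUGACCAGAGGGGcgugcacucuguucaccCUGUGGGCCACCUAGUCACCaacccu
mir-300: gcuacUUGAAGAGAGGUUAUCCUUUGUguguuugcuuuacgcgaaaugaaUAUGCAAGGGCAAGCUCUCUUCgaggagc

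Most of the mature miRNAs that the results turn on follow with their seed, bases 2 to 8, in capitals. No seed is shared among those shown. The mature miR-378a-3p, of another pair that passed below, is not shown, and its seed was not compared with these. The letters of miR-378b and miR-378c share a run of 19, but the run starts 1 base later in miR-378c, and the seeds are offset by that base.
miR-378b: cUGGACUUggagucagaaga
miR-378c: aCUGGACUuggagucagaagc
miR-667-3p: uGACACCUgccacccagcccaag
miR-543-3p: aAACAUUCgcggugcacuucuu
miR-134-5p: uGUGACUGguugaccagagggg
miR-300-3p: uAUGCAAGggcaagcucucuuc
miR-181a-5p: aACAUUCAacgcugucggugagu

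All array values are on the log2 scale after RMA, an array normalization. Array medians over hairpins ran from 0.78 to 0.83 in aSHF and from 0.84 to 0.86 in OFT-RV, so the tissues were treated as normalized separately and levels are not compared across tissues. The signals of different probe sets are set against the background threshold and ranked to choose which to name, not compared as amounts of RNA. Identifiers of 146 hairpin probe sets end in _x_st, that of mir-181a-2 among them. Those of 29 end in _s_st, among them mir-465c-1 and mir-465c-2. Whether such probe sets also read other sequences was not analysed here. Within OFT-RV, mutant replicate 3 stood apart: its median correlation with the other arrays was 0.936 over mature miRNAs and 0.827 over hairpins, against 0.969 to 0.975 and 0.853 to 0.859 for the other OFT-RV arrays. The aSHF arrays had medians of 0.983 to 0.987 over mature miRNAs and 0.879 to 0.896 over hairpins. Dgcr8, read on the mRNA arrays, averaged 10.22 ± 0.05 in aSHF mutant pools and 10.34 ± 0.06 in aSHF wild-type pools (SD, n = 4 each), a change of -0.12 that did not pass (SE 0.05, limma, adjusted p = 0.978). In OFT-RV it fell to 7.70 ± 0.07 in mutant pools, against 8.11 ± 0.11 in wild-type pools (SD, n = 4 each), a log2 change of -0.41 (SE 0.06, limma, adjusted p = 0.00753). How the Dgcr8 probes relate to the floxed part of the gene was not analysed here. All 12 second heart field progenitor markers stood above the middle of all genes in aSHF wild-type pools (median percentile 81.8), but so did 8 of 8 pharyngeal endoderm and epithelium markers (83.2) and 13 of 14 cardiomyocyte markers (76.6). The other 5 marker lists had median percentiles of 55.8 to 70.8 there. In OFT-RV wild-type pools the 14 cardiomyocyte markers had a median percentile of 99.3, endothelium and endocardium markers 82.8 (7 of 7 above the middle), primitive erythroid markers 67.6 and the other 5 lists 38.9 to 59.2.

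Most hairpins gave no signal above background. A probe set was counted as above background where its mean over all arrays of a tissue passed the 95th percentile of the 95 background probe sets, which was 2.75 in aSHF and 1.03 in OFT-RV. By that rule 11 of 1255 hairpins (0.876%) were above background in aSHF, against 293 of 1908 mature miRNAs (15.4%). In OFT-RV there were 81 hairpins (6.45%), against 493 mature miRNAs (25.8%). These counts depend on the rule: above the highest background probe set there were 4 hairpins in aSHF and 10 in OFT-RV, with the threshold passed on every array 8 and 15, and above the 75th percentile 58 and 484. The rule itself passes 5.26% of the background probe sets, so the OFT-RV share of hairpins is close to it and the aSHF share is below it. Below the threshold a probe set gives only a bound on the level, and a difference between groups there is a difference of background signals.

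The median hairpin had a mean of 0.81 in aSHF and 0.85 in OFT-RV. The 2515 hairpin probe sets of the array that the tables do not list as mouse had the same medians, 0.81 and 0.85. From the 5th to the 95th percentile, mouse hairpins ran from 0.65 to 1.24 in aSHF and from 0.73 to 1.05 in OFT-RV. Most hairpins around a mature miRNA above background were not above it themselves. Of 307 aSHF hairpins that enclose a mature miRNA above background, 300 were themselves below it, and in OFT-RV this held for 440 of 498.

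**Figure D1:**
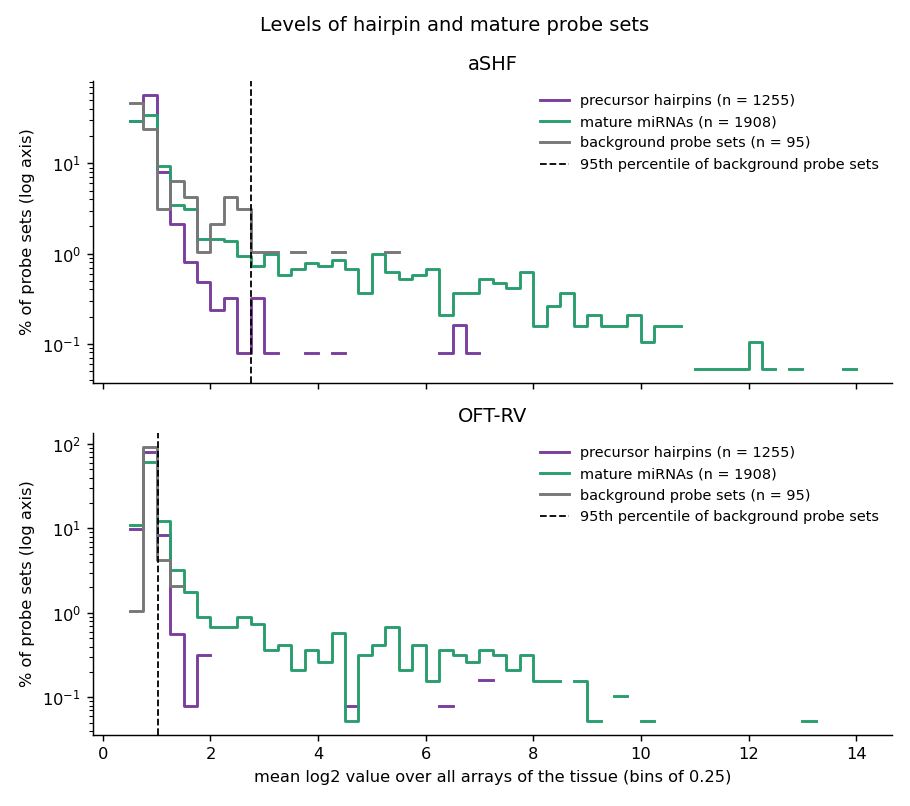
Share of probe sets (log axis, percent) by mean log2 value in bins of 0.25, for precursor hairpins, mature miRNAs and background probe sets in aSHF (top) and OFT-RV (bottom). The dashed line is the 95th percentile of the background probe sets. Hairpins pile up with the background probe sets, 11 lying to the right of the line in aSHF and 81 in OFT-RV, while mature miRNAs run on to 13.96 and 13.13.

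Of the hairpins, 9 were above background in both tissues and 83 in either. Those above background in aSHF were mir-320, mir-465c-1 and mir-465c-2, mir-181a-2, mir-361, mir-7674, mir-1983, mir-2861, mir-7654, mir-677 and mir-7655, of which mir-2861 and mir-7655 were not above it in OFT-RV. All 81 in OFT-RV together had a median change of 0.03, with 50 higher in mutant pools and 31 lower. In aSHF 6 of the 11 were higher and 5 lower. None passed in either tissue.

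The hairpin mir-320, known to form at a transcription start and to be made without the Microprocessor, stood well above background. Its aSHF values were 6.77, 6.67, 6.96 and 6.75 in mutant pools, against 6.96, 6.68, 6.80 and 6.68 in wild-type pools. These groups overlapped, with a difference of 0.01 (SE 0.10, 95% interval -0.21 to 0.22). In OFT-RV mir-320 stood at 6.65, 6.47 and 6.63 in mutant pools, against 6.15, 6.24 and 6.08 in wild-type pools. The OFT-RV groups did not overlap, yet the difference of 0.43 (SE 0.09) did not pass over all mouse probe sets (limma, adjusted p = 0.167). Its mature miR-320-3p was 7.08, 7.24 and 6.94 in OFT-RV mutant pools, against 6.46, 6.64 and 6.96 in wild-type pools, a difference of 0.40 (SE 0.14, limma, adjusted p = 0.520). The gene Mir320 on the mRNA arrays differed by -0.03 (SE 0.12) in OFT-RV.

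The hairpins mir-465c-1 and mir-465c-2, from a cluster on the X chromosome known for expression in the testis, also stood well above background. Their shared values were 6.90, 6.42, 6.42 and 7.0 in aSHF mutant pools, against 6.92, 6.35, 6.44 and 6.50 in wild-type pools. In OFT-RV they were 7.18, 6.90 and 7.55 in mutant pools, against 6.84, 6.92 and 6.89 in wild-type pools. The groups overlapped in both tissues, with differences of 0.13 (SE 0.17) and 0.33 (SE 0.16). Without OFT-RV mutant replicate 3, the array that stood apart, the second was 0.16 (SE 0.12). The enclosed miR-465c-5p was at background on all arrays, between 0.60 and 1.03. The relatives mir-465a, mir-465b-1, mir-465b-2 and mir-465d had means between 0.72 and 1.07.

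The hairpin mir-181a-2 encloses miR-181a-5p, a miRNA known from lymphocytes and muscle. The hairpin had values of 6.26, 6.28, 6.18 and 6.27 in aSHF mutant pools, against 6.59, 6.70, 6.37 and 6.93 in wild-type pools. The OFT-RV values were 4.10, 4.43 and 4.24 in mutant pools, against 4.74, 4.57 and 5.21 in wild-type pools. All mutant pools lay below all wild-type pools in both tissues. The differences of -0.41 (SE 0.11, limma, adjusted p = 0.540) in aSHF and -0.58 (SE 0.17, limma, adjusted p = 0.328) in OFT-RV did not pass. Its mature miR-181a-5p differed by -0.33 (SE 0.13) and -0.47 (SE 0.14) and did not pass either. The other copy, mir-181a-1, encloses the same miR-181a-5p but had means between 0.76 and 0.82. On the mRNA arrays Mir181a-1 rose by 1.61 in aSHF and 2.29 in OFT-RV, and Mir181a-2 rose by 0.32 in OFT-RV (SE 0.06, limma, adjusted p = 0.0449).

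The hairpin mir-361 was lower in every mutant pool as well. Its values were 3.43, 3.82, 3.68 and 3.75 in aSHF mutant pools, against 3.92, 3.85, 3.94 and 3.94 in wild-type pools. In OFT-RV they were 1.93, 1.99 and 1.37 in mutant pools, against 2.12, 2.40 and 2.17 in wild-type pools. The groups were apart in both tissues, but the differences of -0.24 (SE 0.09, limma, adjusted p = 0.868) and -0.47 (SE 0.17, limma, adjusted p = 0.543) did not pass. Without OFT-RV mutant replicate 3 the second was -0.27 (SE 0.12). Its mature miR-361-5p differed by -0.10 (SE 0.11) and -0.93 (SE 0.45), and the lowest OFT-RV value, 3.87, was that of mutant replicate 3, without which the OFT-RV difference was -0.35 (SE 0.19).

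The other bright hairpins had mutant and wild-type values that overlapped in aSHF. The hairpin mir-7674 spread widely, from 3.62 to 4.85 over aSHF mutant pools and from 3.76 to 5.0 over wild-type pools. The hairpin mir-1983 was at 2.71 to 3.34 in aSHF mutant pools and 2.74 to 3.14 in wild-type pools. The hairpin mir-677, which lies in the span of the ATP synthase gene Atp5b, was higher by 0.22 (SE 0.18) in aSHF and by 0.24 (SE 0.11) in OFT-RV. The hairpin mir-2861 was at 2.84 to 3.04 in aSHF mutant pools and 2.78 to 3.12 in wild-type pools, while its mature miR-2861 was at 11.87 to 11.99 and 11.88 to 12.04.

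**Figure D2:**
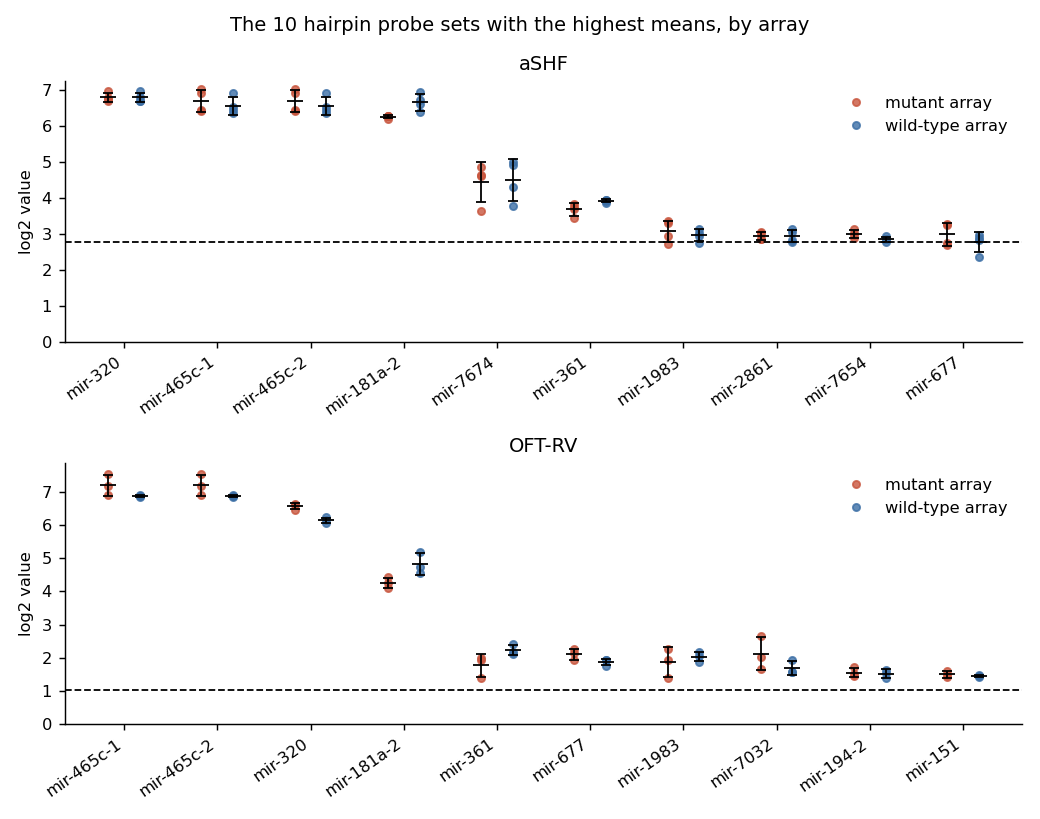
Log2 value on each array of the 10 hairpin probe sets with the highest means in aSHF (top) and OFT-RV (bottom). Red points are mutant arrays and blue points wild-type arrays, black marks are means with SD, and the dashed line is the background threshold. The mutant points of mir-181a-2 and mir-361 lie below the wild-type points in both tissues, and those of mir-320 lie above them in OFT-RV.

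The first comparison asked whether hairpins differed between Mef2c-AHF-Cre/+, Dgcr8 f/f embryos and wild-type embryos. By limma with adjustment over all 3163 mouse probe sets, 0 of 1255 hairpins passed in aSHF and 0 in OFT-RV. Over all mouse probe sets percent called was 0.0 in aSHF and 0.285 in OFT-RV, where 9 mature miRNAs fell. At an unadjusted p under 0.05 there were 42 hairpins in aSHF (3.35%, 15 higher and 27 lower), against 5.53% of all mouse probe sets. In OFT-RV there were 46 (3.67%, 23 higher and 23 lower), against 7.68%. The smallest adjusted p of a hairpin was 0.437 in aSHF and 0.131 in OFT-RV, and the authors' deposited table calls 0 hairpins as well.

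Hairpin differences were small in both directions. In aSHF they ran from -0.41 to 0.43 (median -0.01), with 593 hairpins higher in mutant pools and 662 lower. In OFT-RV they ran from -0.58 to 0.45 (median 0.01), with 678 higher and 577 lower. The median SE was 0.10 in both tissues. By contrast mature miRNAs ran from -1.61 to 1.18 in aSHF and from -2.25 to 1.76 in OFT-RV. The groups did not overlap, mutant lower, for 21 hairpins in aSHF and 59 in OFT-RV. Probe sets of either kind with this pattern made up 2.34% of all mouse probe sets in aSHF and 6.13% in OFT-RV. The groups did not overlap, mutant higher, for 8 hairpins in aSHF and 72 in OFT-RV, against 30 (0.948%) and 184 (5.82%) of all mouse probe sets. As shares of the hairpins the 4 hairpin counts are 1.67%, 4.70%, 0.637% and 5.74%, each below that of all mouse probe sets.

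In OFT-RV the smallest p among lower hairpins was that of mir-494, of the Dlk1-Dio3 locus. Its values were 0.74, 0.67 and 0.67 in mutant pools, against 1.17, 1.02 and 1.21 in wild-type pools, a difference of -0.44 (SE 0.09, limma, adjusted p = 0.131). The hairpin mir-409, of the same locus, stood at 0.75, 0.57 and 0.63 in mutant pools, against 1.09, 1.03 and 1.43 in wild-type pools, a difference of -0.54 (SE 0.12, limma, adjusted p = 0.194). Both were close to the background threshold in wild-type pools and below it in mutant pools. In a single fit over all 4 groups of arrays mir-409 passed (adjusted p = 0.0183), the only hairpin to do so.

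Their mature miRNAs were lower as well. The mature miR-494-3p was at 5.16, 4.96 and 3.49 in OFT-RV mutant pools, against 5.53, 5.63 and 5.98 in wild-type pools, a difference of -1.17 (SE 0.40, limma, adjusted p = 0.469). The mature miR-409-3p was at 6.31, 6.60 and 5.50, against 7.12, 7.24 and 7.34 in wild-type pools, a difference of -1.10 (SE 0.25, limma, adjusted p = 0.194). For both, mutant replicate 3 had the lowest value, and without it the differences were -0.65 (SE 0.15) and -0.78 (SE 0.13).

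The hairpin mir-351 lies in an X-linked cluster with mir-322 and mir-503, known in muscle differentiation. It stood at 1.0, 1.02 and 0.74 in OFT-RV mutant pools, against 1.29, 1.28 and 1.39 in wild-type pools, a difference of -0.40 (SE 0.10, limma, adjusted p = 0.237). Its mature miR-351-5p was at 8.48, 8.64 and 8.39, against 9.11, 9.02 and 9.02 in wild-type pools, a difference of -0.55 (SE 0.09, limma, adjusted p = 0.103). The gene Mir351 rose by 2.81 on the mRNA arrays (SE 0.12, adjusted p = 5.07e-08). At this locus the gene was higher, and the hairpin and the mature miRNA were lower, in every mutant pool than in any wild-type pool. Neither the hairpin nor the mature miRNA passed. The hairpin's mutant values were all below the threshold of 1.03, so its fall has only a bound. The lowest of them, 0.74, was that of mutant replicate 3, the array that stood apart.

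The other lower OFT-RV hairpins named by p were mir-500 at -0.48 (SE 0.13) and mir-323 at -0.32 (SE 0.09), both below background. Among higher ones, mir-6236 stood at 0.37 (SE 0.09), mir-3547 at 0.32 (SE 0.09) and mir-6956 at 0.34 (SE 0.10), also below background, and the first place was that of mir-320. In aSHF mir-6339 had the smallest p, with 0.93, 0.91, 1.06 and 0.87 in mutant pools, against 0.61, 0.57, 0.63 and 0.67 in wild-type pools, a difference of 0.32 (SE 0.08, limma, adjusted p = 0.437). Among lower aSHF hairpins, mir-297c stood at -0.27 (SE 0.08) and mir-125a at -0.25 (SE 0.07). The hairpin mir-379 stood at -0.28 (SE 0.09) and its mature miR-379-5p at -0.35 (SE 0.09). All of these aSHF hairpins lay below background.

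The second comparison set each hairpin's change against that of the brightest mature miRNA inside it, on the same arrays. In aSHF 0 of 1250 pairs passed, and 70 (5.6%) had an unadjusted p under 0.05. In OFT-RV 7 pairs passed, which is percent called 0.56, and 126 pairs (10.1%) had an unadjusted p under 0.05. In all 7 the mature miRNA was lower in mutant pools. The hairpin was above background for 1 of the 7, mir-667, and not above it for the other 6. A hairpin that reads at background cannot be seen to fall, so hairpin minus mature here follows the mature miRNA's fall and does not measure how much the hairpin changed. Among the 7, 4 hairpins were of the Dlk1-Dio3 locus and 3 of the miR-378 family, which is known from muscle and energy metabolism. The count of 7 moved with the processing: it was 0 with limma's trended and robust variance prior (113 at an unadjusted p under 0.05), 3 with the mean of all mature miRNAs of a hairpin in place of the brightest, and 3 to 9 without single arrays. Leaving out wild-type replicate 2 gave 3, and leaving out wild-type replicate 3 or mutant replicate 2 gave 4 each. Leaving out mutant replicate 3, the array that stood apart, gave 8.

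The first of these is mir-378b, whose sequence is shown above. The hairpin stood at 0.89, 0.93 and 0.99 in OFT-RV mutant pools, against 0.76, 0.91 and 1.02 in wild-type pools. Its mature miR-378b stood at 2.12, 2.57 and 1.85 in mutant pools, against 4.40, 4.25 and 4.64 in wild-type pools. The hairpin values overlapped below background, while the mature values were far apart. The mature miRNA fell by 2.25 (SE 0.19, limma, adjusted p = 0.00461).

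The hairpin mir-378c likewise showed overlapping values below background, 0.74, 0.79 and 1.02 in mutant pools, against 0.74, 0.83 and 0.92 in wild-type pools. Its mature miR-378c fell to 4.05, 3.39 and 3.45 in mutant pools, against 5.48, 5.42 and 5.19 in wild-type pools (-1.73, SE 0.18, limma, adjusted p = 0.0110). For mir-378a, whose hairpin was also below background, miR-378a-3p fell by 1.37 (SE 0.18, limma, adjusted p = 0.0394). The gene Mir378a differed by 0.13 (SE 0.08) on the mRNA arrays and did not pass.

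Among the Dlk1-Dio3 pairs, mir-543 stood at 0.81, 0.92 and 0.94 in OFT-RV mutant pools, against 1.09, 1.09 and 1.31 in wild-type pools, a difference of -0.27 (SE 0.10). Its mature miR-543-3p stood at 1.35, 1.12 and 1.27 in mutant pools, against 2.95, 3.02 and 3.23 in wild-type pools, and fell by 1.82 (SE 0.11, limma, adjusted p = 0.000701). Both were lower in every mutant pool, but the hairpin's mutant values were all below the threshold of 1.03, so its fall has only a bound and is not set against that of the mature miRNA. The gene Mir543 rose by 0.73 (SE 0.10, limma, adjusted p = 0.00583).

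The hairpin mir-134 stayed between 0.65 and 0.73 in mutant pools and between 0.66 and 0.69 in wild-type pools. Its mature miR-134-5p, a miRNA known from neuronal dendrites, was at 4.87, 4.60 and 4.41 in mutant pools, against 6.09, 6.04 and 6.36 in wild-type pools, and fell by 1.53 (SE 0.14, limma, adjusted p = 0.00624). The gene Mir134 rose by 0.56 (SE 0.09, limma, adjusted p = 0.0105). The 3 layers of this locus thus had a higher gene, a hairpin at background and a lower mature miRNA.

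The hairpin mir-300 was at 0.73, 0.67 and 0.87 in mutant pools, against 1.16, 0.62 and 0.55 in wild-type pools. Its mature miR-300-3p was at 2.68, 2.31 and 2.16 in mutant pools, against 4.54, 3.47 and 3.49 in wild-type pools. The mature groups did not overlap, but the difference of -1.45 (SE 0.29) did not pass by itself (limma, adjusted p = 0.131). Its pair is counted among the 7 with a hairpin that read at background. The gene Mir300 rose by 1.90 (SE 0.13). The hairpin mir-667 stood just above background, at 1.10, 1.04 and 1.02 in mutant pools, against 1.19, 0.83 and 1.09 in wild-type pools. Its mature miR-667-3p fell by 1.54 (SE 0.22, limma, adjusted p = 0.0463), a call lost without mutant replicate 3 (-1.37, adjusted p = 0.0545). The hairpin minus mature of this pair was 1.56 (SE 0.24, limma, adjusted p = 0.0409), and the gene Mir667 differed by -0.03 (SE 0.08).

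Of the 7 pairs, 3 kept their call without any single array, namely mir-378b, mir-543 and mir-134, with adjusted p no higher than 0.0426. The other 4 lost it. The pair of mir-300 lost it when mutant replicate 2 or 3 or any single wild-type array was left out (adjusted p up to 0.156). Those of mir-378a and mir-378c lost it when mutant replicate 2 or any single wild-type array was left out (up to 0.138 and 0.186). That of mir-667 lost it when replicate 2 or 3 of either genotype was left out (up to 0.227).

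**Figure D3:**
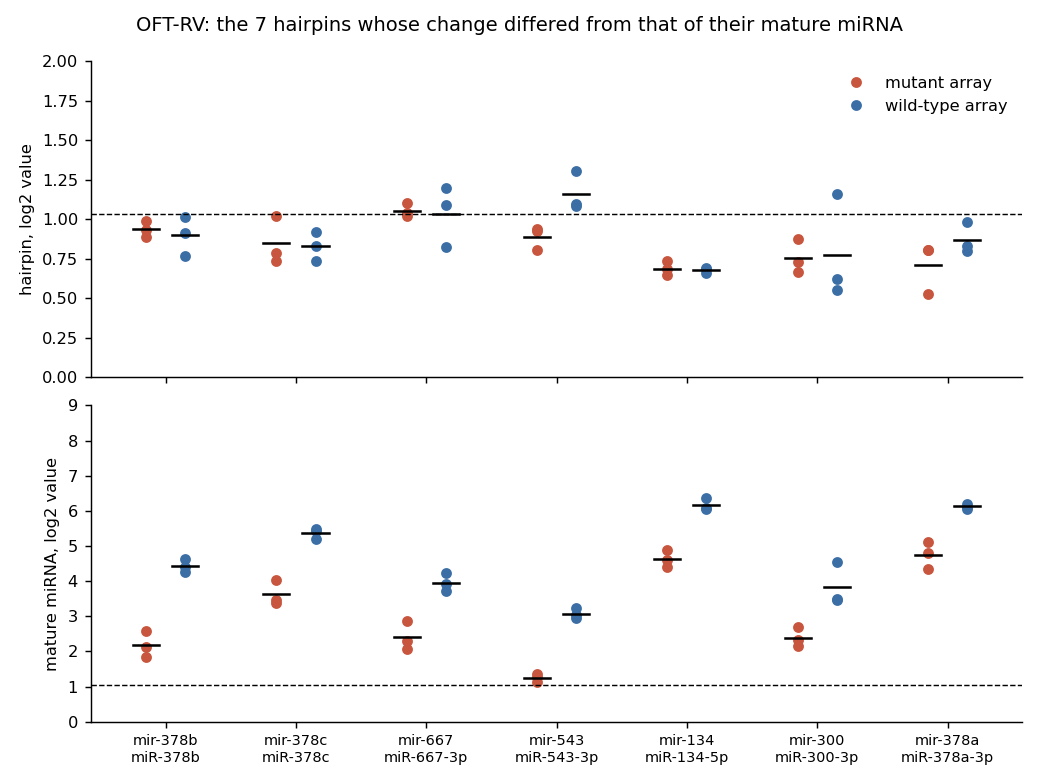
Log2 values on the 3 mutant (red) and 3 wild-type (blue) OFT-RV arrays of the 7 hairpins (top) and of the mature miRNA inside each (bottom), with black bars for means and a dashed line for the background threshold. The vertical ranges of the panels differ. Hairpin values stay between 0.53 and 1.31, while the mutant points of each mature miRNA lie below the wild-type points.

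In aSHF the pairs with the smallest p were mir-339, at 1.13 for hairpin minus mature (SE 0.21, limma, adjusted p = 0.257), mir-99a at 1.68 (SE 0.32, limma, adjusted p = 0.257), let-7e at 0.68 (SE 0.17) and mir-300 at 0.69 (SE 0.18). All 4 hairpins were below background there. The mature miR-99a-5p differed by -1.61 (SE 0.30) there, while its hairpin stood at 0.83, 0.83, 0.64 and 0.78 in mutant pools, against 0.68, 0.85, 0.73 and 0.55 in wild-type pools. The reverse pattern, a mature miRNA higher than its hairpin in mutant pools, passed for 0 pairs. The largest named case in OFT-RV was mir-3473a, at -1.72 (SE 0.37, limma, adjusted p = 0.156). Its mature miR-3473a was at 4.61, 4.37 and 5.11 in mutant pools, against 2.24, 3.08 and 3.49 in wild-type pools.

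Across all 1250 pairs the changes of hairpin and mature miRNA were weakly related, with r = 0.06 in aSHF and 0.17 in OFT-RV. Over the pairs with both above background r was 0.84 in aSHF (7 pairs) and 0.31 in OFT-RV (58 pairs). These values are descriptions: the pairs share arrays, hairpins can share a mature miRNA, and the hairpin contains the mature sequence.

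**Figure D4:**
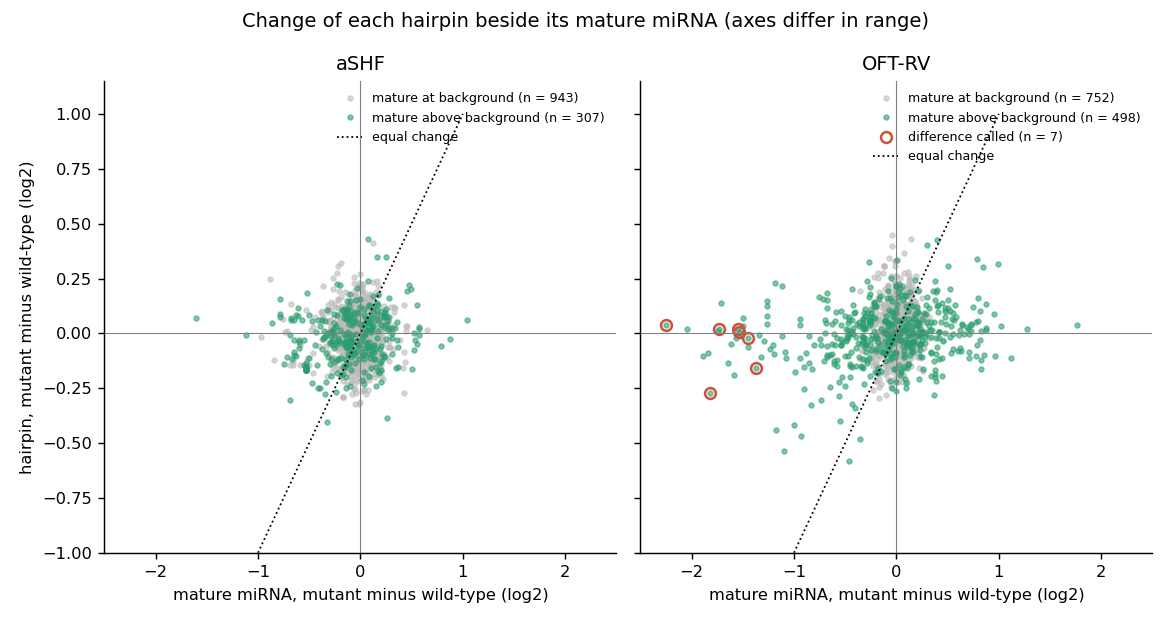
Change of each hairpin (vertical, mutant minus wild-type, log2) against that of the mature miRNA inside it (horizontal, log2) in aSHF (left) and OFT-RV (right), with the dotted line for equal change and axes of different range. Green points have a mature miRNA above background, grey points do not, and red rings mark the 7 pairs that passed in OFT-RV. Hairpins stay within -0.58 and 0.45 while mature miRNAs reach -2.25.

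The third comparison set the hairpins beside the miRNA genes read on the mRNA arrays, where probes report primary transcripts. Of 321 miRNA genes tested, 320 were joined to hairpin probe sets of equal place. In OFT-RV 75 of the 320 genes rose, against 0.432% of all 20842 genes tested, with a median rise of 1.19. Their 90 hairpin probe sets included 0 that passed, 32 higher and 58 lower (median -0.04, from -0.58 to 0.24), and 7 were above background. Taking the brightest mature miRNA inside each of these hairpins, 65 of 72 were lower (median -0.44) and 2 passed. Where the gene did not pass, the median over 232 such mature miRNAs was -0.06, and 3 passed. Counting only those above background, the median was -0.47 where the gene rose and -0.33 where it did not pass. In the latter set 81 of 107 were lower. The 277 hairpins of the 245 genes that did not pass had 150 higher and 127 lower.

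The gene with the largest rise was Mir30d, of a family known to be abundant in heart. On the mRNA arrays it stood at 11.03, 11.06, 10.69 and 11.21 in OFT-RV mutant pools, against 5.86, 5.84, 5.87 and 6.14 in wild-type pools, a rise of 5.07 (SE 0.10, limma, adjusted p = 7.35e-11). Its hairpin mir-30d was at 0.73, 0.71 and 0.82 in mutant pools, against 0.83, 0.74 and 0.85 in wild-type pools. That is a difference of -0.05 (SE 0.08, 95% interval -0.24 to 0.14), with both groups below background. Its mature miR-30d-5p was at 2.24, 2.32 and 0.94 in mutant pools, against 3.01, 3.55 and 2.55 in wild-type pools, a difference of -1.21 (SE 0.39) that did not pass. Without mutant replicate 3, whose value was 0.94, it was -0.76 (SE 0.25).

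The miR-17-92 cluster, a polycistron of proliferating progenitors, showed the same arrangement. The gene Mir18 rose by 4.87 (SE 0.10), while its hairpin mir-18a stood at 0.86, 0.81 and 0.86 in mutant pools, against 0.67, 0.74 and 0.83 in wild-type pools, a difference of 0.10 (SE 0.08). The genes Mir19a, Mir20a and Mir19b-1 rose by 4.49, 4.34 and 4.29, while their hairpins differed by 0.05 (SE 0.10), -0.02 (SE 0.10) and 0.07 (SE 0.10). All 6 genes of the cluster rose (median 4.31), 0 of its 7 hairpin probe sets passed, 6 were higher and 1 lower, and all 9 of its mature miRNAs above background were lower. In aSHF 3 of the 7 hairpin probe sets were higher and 4 lower (median -0.05). The muscle gene Mir133a-2 rose by 3.71 (SE 0.15), with its hairpin at -0.10 (SE 0.13). In all, 23 genes rose by more than 2, and their 29 hairpin probe sets had a median of 0.02, with 16 higher and 13 lower.

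In aSHF 36 of the 320 genes rose, against 0.178% of all genes (37 genes). Leaving out wild-type replicate 3 gave 20 genes that passed in either direction, and leaving out wild-type replicate 4 gave 18. The 41 hairpin probe sets of the 36 genes included 0 that passed, 15 higher and 26 lower (median -0.03), and 0 above background. Taking the brightest mature miRNA inside each, 33 of 36 were lower (median -0.20). Among these brightest mature miRNAs, 29 of the 31 above background were lower where the gene rose (median -0.20). Where the gene did not pass, 75 of 97 were lower (median -0.14). The largest rise was that of Mir19b-1, by 2.13 (SE 0.11), with its hairpin at -0.05 (SE 0.10) and miR-19b-3p at -0.02 (SE 0.08). Across the joined hairpins the change of hairpin and gene had r = -0.07 in aSHF and -0.09 in OFT-RV, given as a description. With hairpins at background, these arrays bound but do not measure how much free or transcript-borne hairpin was present.

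**Figure D5:**
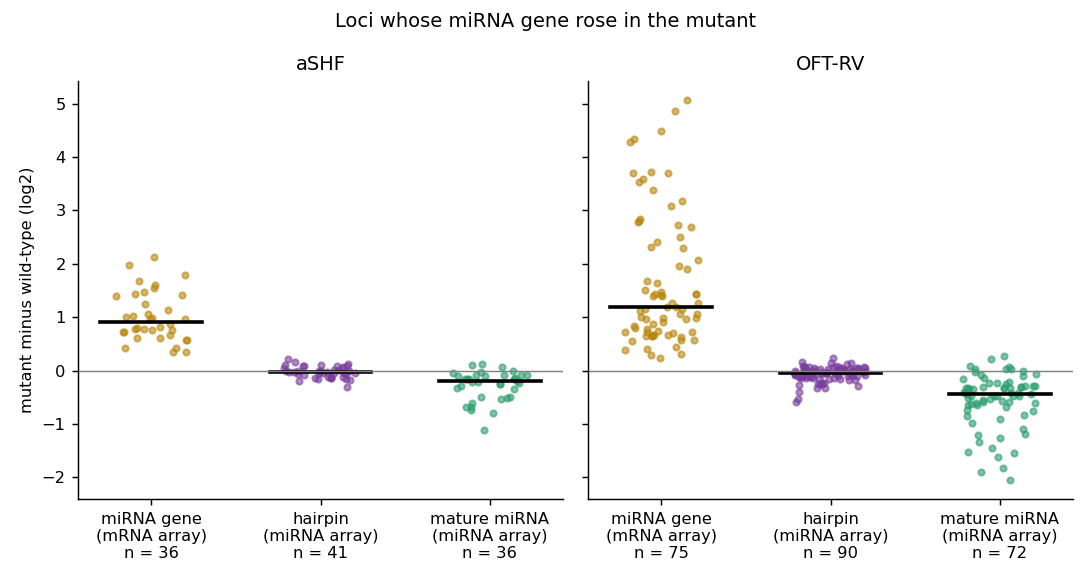
Mutant minus wild-type (log2) at the loci whose miRNA gene rose, in aSHF (left) and OFT-RV (right). Columns are the gene on the mRNA arrays, the hairpin and the brightest mature miRNA inside it. Each point is a gene or probe set and black bars are medians. In OFT-RV the medians are 1.19 for 75 genes, -0.04 for 90 hairpin probe sets and -0.44 for 72 mature miRNAs.

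By group, none of 17 lists of hairpins held a member that passed in either tissue. Most hairpin probe sets of the lists lay below background, where a direction is that of background signals. In the Dlk1-Dio3 list 0 were above background in aSHF and 5 in OFT-RV, and in the let-7 list 0 in both. The Dlk1-Dio3 list had 66 hairpin probe sets, of which 22 were higher and 44 lower in aSHF (median -0.06) and 26 higher and 40 lower in OFT-RV (median -0.02). At the same locus 11 of 41 genes rose in aSHF and 23 of 41 in OFT-RV, and 29 of 31 and 46 of 51 mature miRNAs above background were lower. Of the let-7 family, which limits growth genes, 13 of 19 hairpin probe sets were lower in aSHF (median -0.04) and 14 of 19 in OFT-RV (median -0.07). Of the miR-30 family 4 of 9 were lower in aSHF (median 0.01) and 8 of 9 in OFT-RV (median -0.05). Of the miR-130 family 4 of 6 were lower in each (medians -0.02 and -0.05).

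Median changes of several other lists had opposite signs in the 2 tissues, a difference that was not tested by list. The muscle, neural, epithelial, miR-106, miR-199 and miR-214, miR-15/16, erythroid and smooth muscle lists had 0 hairpin probe sets above background in either tissue. Their directions are thus those of background signals. Among the muscle hairpins, 6 of 13 probe sets were higher in aSHF (median -0.03) and 9 of 13 in OFT-RV (median 0.04). Of their 17 mature miRNAs 13 were lower in OFT-RV, among them all 5 that were above background. Of the neural list 6 of 17 were higher in aSHF (median -0.07) and 13 of 17 in OFT-RV (median 0.09). The miR-302 and miR-290 clusters had 11 of 15 higher in aSHF (median 0.07) and 5 of 15 in OFT-RV (median -0.02). The epithelial list had 4 of 7 higher in aSHF (median 0.07) and 7 of 7 in OFT-RV (median 0.03). The miR-106 clusters had 5 of 10 higher in each tissue, and the miR-181 list 5 of 8. The miR-199 and miR-214 list had 2 of 5 higher in aSHF (median -0.04) and 3 of 5 in OFT-RV (median 0.12), and the miR-15/16 list 5 of 8 (median 0.01) and 2 of 8 (median -0.04). The erythroid list had 2 of 6 higher in aSHF and 3 of 6 in OFT-RV, the smooth muscle list 0 of 3 and 1 of 3, and the endothelial list 1 of 2 and 0 of 2. Over all hairpins 593 of 1255 were higher in aSHF and 678 in OFT-RV. The 9 hairpins known to bypass the Microprocessor, mir-320 among them, had 6 higher and 3 lower in aSHF (median 0.01). In OFT-RV they had 5 higher and 4 lower (median 0.01). Of their 19 mature miRNAs 9 were lower in aSHF (median 0.01) and 2 in OFT-RV (median 0.33). Counting only those above background, 3 of 7 were lower in aSHF and 0 of 11 in OFT-RV.

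The last comparison tested whether hairpins changed differently in the 2 tissues, in a single fit of all 4 groups. No hairpin passed (0 of 1255, with percent called 0.0948 over all mouse probe sets), and 41 had an unadjusted p under 0.05 (3.27%), against 5.56% of all mouse probe sets. OFT-RV minus aSHF was 0.42 for mir-320 (SE 0.13, limma, adjusted p = 0.630) and 0.39 for mir-6516 (SE 0.12, limma, adjusted p = 0.591). It was -0.44 for mir-409 (SE 0.14, limma, adjusted p = 0.598) and -0.51 for mir-500 (SE 0.19, limma, adjusted p = 0.717). Because the tissues were treated as normalized separately, these differences compare changes and not levels.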

How the data were processed

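Total RNA was measured on Affymetrix miRNA arrays (14) and mRNA arrays (16). The deposited values of both array types are on the log2 scale, and the submitters' processing notes name RMA and the package oligo as the authors' tools, without versions. The authors' deposited tables of mutant against wild-type give p-values, plain and adjusted, and log2 changes per the file headers, and they supplied names, places and the list of mouse probe sets. A further 30 columns of values match no sample label and were not used. No source used here names the build behind the places, but 1019 hairpin places equal entries of RefSeq GRCm38.p6, whose letters are shown. A hairpin's mature miRNAs are those whose place lies wholly inside its own, on the same strand. Names of the 20842 genes came from matching the deposited means and changes to probe sets within 1e-06.

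Within a tissue, genotype was the single term of a linear model fitted by limma 3.58.1 under R 4.3.3 (lmFit, then eBayes), with Benjamini-Hochberg adjustment over all 3163 mouse probe sets or all 20842 genes. A feature passed at an adjusted p under 0.05. Hairpin minus mature was tested on within-array differences over 1250 pairs, using the mature miRNA with the highest mean, and differences between tissues in a fit of 4 groups. SE is limma's moderated standard error and SD the spread between pools. The number of arrays limits the precision. The within-tissue fit of the miRNA arrays was run on simulated data with known changes and independent noise.

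Hairpins were named by a rule: called ones first, otherwise the 6 of lowest p both upward and downward, the 4 for pairs and tissue differences, the 10 brightest in each tissue and up to 4 of each list. Hairpins of the miRNA genes with the largest rises were added after their values were seen, as were leave-one-out and replicate-block fits of the miRNA genes. The members and lists were chosen with earlier results of these data known.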

Additional observations from a re-analysis of the deposited data

How the results depend on the processing

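Over combinations of 77 single-hairpin results with settings that keep all arrays, 496 kept direction and side of the threshold, 12 lost a call, 1 gained one and 3 turned sign. With 1 array left out these counts were 548, 17, 0 and 21. No hairpin passed in either tissue under any setting run except a single fit over 4 groups, where 1 did in OFT-RV (mir-409). The 7 OFT-RV pairs of hairpin minus mature became 3 with the mean of all mature miRNAs, 0 with limma's trended and robust prior (113 at an unadjusted p under 0.05), and 3 to 9 without single arrays. The labels give no pairing of replicate numbers, so whether samples were paired is not known. Correlations of same-numbered deviations were 0.18, 0.02, 0.14 and 0.01 in aSHF, and 0.12, -0.07 and 0.06 in OFT-RV. With a replicate block 13 pairs passed in OFT-RV, the pair of mir-667 no longer among them (adjusted p = 0.0879), and 0 hairpins passed in either tissue (28 and 30 at an unadjusted p under 0.05). The number of hairpins above background followed the threshold: in aSHF it was 4 above the brightest background probe set and 58 above the 75th percentile. In OFT-RV it was 10 and 484 by those rules, and when every array had to pass it was 8 in aSHF and 15 in OFT-RV. The miRNA genes that passed in either direction numbered 18 to 42 in aSHF and 64 to 70 in OFT-RV without single arrays. With a replicate block they numbered 46 and 73, and all these fits were added after the data were seen.

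Changes near 0 turned sign. Centring on background probe sets gave -0.010 for mir-134 in OFT-RV and -0.0074 for mir-320 in aSHF, and centring on spike-ins gave 0.036 for mir-2861 in aSHF. Without single arrays the OFT-RV changes ran from -0.21 to 0.0075 for mir-133a-2, -0.015 to 0.028 for mir-134, -0.0022 to 0.090 for mir-151, -0.044 to 0.10 for mir-194-2, -0.37 to 0.074 for mir-1983, -0.027 to 0.12 for mir-19a and -0.070 to 0.069 for mir-20a. The aSHF changes ran from -0.12 to 0.017 for mir-19b-1, -0.065 to 0.050 for mir-2861, -0.051 to 0.064 for mir-320 and -0.30 to 0.21 for mir-7674. The cause of these moves was not tested. Signal over background is a limit, since a hairpin below the threshold has only a bound on its level.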

Other observations

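Runs of a single base were counted in the 956 distinct hairpin places with RefSeq letters, a feature chosen after the values of mir-465c-1, mir-465c-2 and mir-181a-2 were seen. The longest run was 10 A in mir-465c-1 and mir-465c-2, between the arms, and 7 A in mir-181a-2. Among the other 11 hairpins with a run of at least 6 A, 0 were above background in aSHF and 1 in OFT-RV (9.09%, mir-465d), against 0.941% and 6.07% of all 956. The relatives mir-465a, mir-465b-1 and mir-465b-2 have runs of 6 A and means of 0.75 in aSHF. Of hairpins with runs of at least 6 C (12 hairpins), 6 G (13) or 6 U (16), 0 were above background in aSHF, and 2, 0 and 1 were in OFT-RV. No test was made.

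Names with exactly 2 probe sets of different values give 2 readings of a hairpin on the same arrays. Because the pools are the same, their agreement does not measure repeatability between pools. For 76 such names the probe sets had the same direction of change in 61 in aSHF and 58 in OFT-RV, and their levels differed by a median of 0.036 and 0.031. The largest level difference was 1.11, for mir-124-2 in aSHF, whose probe sets differed between genotypes by -0.29 and -0.01.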
